A study of Mus musculus with 11 samples.

Results

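ADAM and ADAMTS proteases are zinc-dependent metalloproteinases that cut proteins at the cell surface and in the extracellular matrix (ECM). ADAMs are anchored in the plasma membrane and release the outer parts of growth factors, cytokines and receptors, a process called shedding. ADAMTS proteases are secreted, carry thrombospondin repeats and cut matrix proteins such as the large proteoglycans versican and aggrecan or the ends of procollagens. Both are made as inactive precursors and are held in check by tissue inhibitors of metalloproteinases. Here, 5 ADAM genes (Adam9, Adam10, Adam12, Adam17 and Adam19) and 5 ADAMTS genes (Adamts1, Adamts2, Adamts4, Adamts5 and Adamts12) were followed. They were chosen by gene symbol with earlier results of these data known, so the choice was not blind. All 10 were found among the 47643 gene symbols of the expression table.

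The transcripts were measured by RNA sequencing of fibroblasts from normal skin (NS) of the back and from 5-day excisional wounds (5dw). K14-Act mice (Act), which overexpress activin A, a TGF-beta family cytokine, in keratinocytes through an INHBA transgene, were compared with wild-type littermates (WT) of the same mixed background, 50% CD-1 and 50% C57Bl/6. All animals were 9 to 12 weeks old. Live CD45-CD140a+ cells were sorted, with CD11b and F4/80 as further negative markers, and each library held the RNA of 3 pooled animals. NS gave 3 libraries per genotype, and 5dw gave 3 for WT and 2 for Act (numbered 1 and 3). The transgene acts in keratinocytes, which the sort was meant to leave out, and NS and 5dw RNA were put in at different amounts, so input and wounding cannot be told apart. In the table, Inhba was at 5.69 ± 1.99 RPKM (SD, n = 3) in WT and 62.2 ± 27.6 (n = 3) in Act fibroblasts of NS, and at 20.1 ± 4.11 (n = 3) and 38.2 ± 17.0 (n = 2) in those of 5dw, with reads of the mouse gene and the transgene not told apart here.

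The mapped totals behind the libraries were 18649321 to 39702138 reads, and 6 of the 10 genes had 953 reads or more in every library. For Adam9, Adam12, Adamts5 and Adamts12, the GENCODE M21 exon length did not give whole reads, so the authors' gene model differed, and their numbers (about 714 or more) and their place among the levels below are approximate. Thus, the number of libraries limited the precision more than the depth did. The 8 fibroblast markers summed to 10112 to 14754 RPKM in NS and 15825 to 18391 in 5dw, but they did not move together. In WT, Col1a1 and Col1a2 rose with wounding and Dcn, Lum, Thy1 and Pdgfra, which encodes CD140a, fell (log2FC -0.63 for Pdgfra), and only Dcn of these 4 fell after the scaling described below. In Act, the same 2 rose and 3 fell (Dcn, Thy1 and Pdgfra), before and after scaling. The 8 keratinocyte markers summed to 825 to 3392 RPKM in NS and 101 to 876 in 5dw, and none of the 8 was at 0 in all libraries. The 9 immune markers summed to 15.5 to 47.3 RPKM in NS and 67.1 to 119.9 in 5dw, of which Cd3e alone made up 2.94 to 33.9 and 55.5 to 104.7, whereas Cd68 was at 6.16 to 12.0 and 4.69 to 6.31, 4 of the 9 stayed below 1 RPKM, and Ptprc, which encodes CD45, stayed below 0.05 RPKM in all 11 libraries. The 6 endothelial markers summed to 5.91 to 10.8 RPKM in NS and 16.1 to 18.3 in 5dw, but they did not rise together. By WT means, Pecam1 was at 4.35 RPKM in NS and 12.2 in 5dw, whereas Kdr was at 4.42 and 2.65. Of the 6, 3 stayed below 1 RPKM in all libraries. The 6 pericyte and smooth muscle markers summed to 10.4 to 18.7 RPKM in NS and 6.24 to 9.44 in 5dw, and the 6 of skeletal muscle and Schwann cells to 1.68 to 7.26 and 0.485 to 0.654, while the 5 adipocyte markers overlapped (0.610 to 1.23 and 0.438 to 1.33). The part of these markers in the results below was not tested. The NS libraries numbered 1 of both genotypes stood apart on the second principal component (22.4 for WT and 35.7 for Act, against -18 to -7.42 for the other 4 NS libraries). In both, Adam12 was the highest and Adamts1 the lowest of their group. Results without these libraries are given where a call is lost or gained, and for some values that move by over 1.5 times.

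All 10 genes encode the zinc-binding site that makes these proteins proteases. In this site, 3 histidines hold the zinc ion and a glutamate acts in catalysis. The 36 coding bases of the site were read from the GENCODE M21 transcripts of GRCm38, and the site occurred once in the transcript used for each gene. They are shown for 6 genes because they set the catalytic center of Adam12 and Adam19, whose transcripts changed most with wounding, and of the sheddase Adam17 beside that of the 3 proteoglycan-cutting ADAMTS proteases. Capitals mark the codons of the 3 histidines and of the glutamate, 5′ to 3′ on the coding strand:
Adam12: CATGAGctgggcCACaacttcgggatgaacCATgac
Adam19: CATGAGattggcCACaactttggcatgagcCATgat
Adam17: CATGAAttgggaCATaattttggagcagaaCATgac
Adamts1: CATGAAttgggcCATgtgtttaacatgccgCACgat
Adamts4: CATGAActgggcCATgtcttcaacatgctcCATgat
Adamts5: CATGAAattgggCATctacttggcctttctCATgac

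The Adam12 site lies in exon 11 (chr7:133961155-133961190, minus strand), that of Adam19 in exon 11 of its transcript (chr11:46125050-46125085, plus strand) and that of Adam17 in exon 12 (chr12:21336729-21336764, minus strand). The ADAMTS sites shown were each split by an intron. In Adamts1, the site began in exon 3 (chr16:85799536-85799545) and ended in exon 4 (chr16:85799188-85799213) on the minus strand. In Adamts4, it ran from exon 3 (chr1:171253210-171253219) to exon 4 (chr1:171253893-171253918) on the plus strand. In Adamts5, it ran from exon 2 (chr16:85887817-85887826) to exon 3 (chr16:85878012-85878037) on the minus strand. The eighth codon was aac in Adamts1 and Adamts4 and gga, ggc or ggg in the other 8 genes. Over the 36 bases, 22 to 30 (median 26.5) were identical between pairs of the 5 ADAM genes, 21 to 30 (median 23) between pairs of the 5 ADAMTS genes, and 17 to 27 (median 23) between an ADAM and an ADAMTS gene. The reads of the genes were little shared: of the 31-base sequences of Adam12, 3.96% also occurred in another gene, 3.22% of Adam17, 1.81% of Adamts2 and under 0.5% of the other 7.

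The level of the 10 transcripts in NS spanned a wide range (RPKM, which is corrected for gene length, so that genes can be compared). Adamts1, a versican- and aggrecan-cutting protease, was the highest with a mean of 279 RPKM over the 6 NS libraries (190.2 to 339). It was followed by Adamts2, the procollagen N-propeptide protease, at 89.1 and Adamts4 at 71.9, whose ranges overlapped. Adamts5 at 42.5 and Adam9 at 36.2 also overlapped with each other but with neither Adamts4 above nor Adam17 below. Adam17 at 15.5, Adam10 at 13.6, Adamts12 at 11.8, Adam19 at 9.33 and Adam12 at 5.57 formed the low end, and each overlapped with the next in this order. Thus, 4 of the 5 ADAMTS transcripts were above all 5 ADAM transcripts by their NS means.

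The order was different in 5dw fibroblasts, where the ranges of the first 5 genes did not overlap. Adamts1 was again the highest, with a mean of 382 RPKM over the 5 libraries (345 to 436), followed by Adamts2 at 83.1 and Adamts4 at 61.3. Adam9 was at 50.6 and Adam12 at 43.4, so that Adam12 moved from the last to the fifth place. Adamts5 at 33.2 overlapped with Adam12 above and Adam19 below, which was at 26.8. Adamts12 at 15.6, Adam10 at 13.0 and Adam17 at 11.5 came last, and each overlapped with its neighbor.

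**Figure D1:**
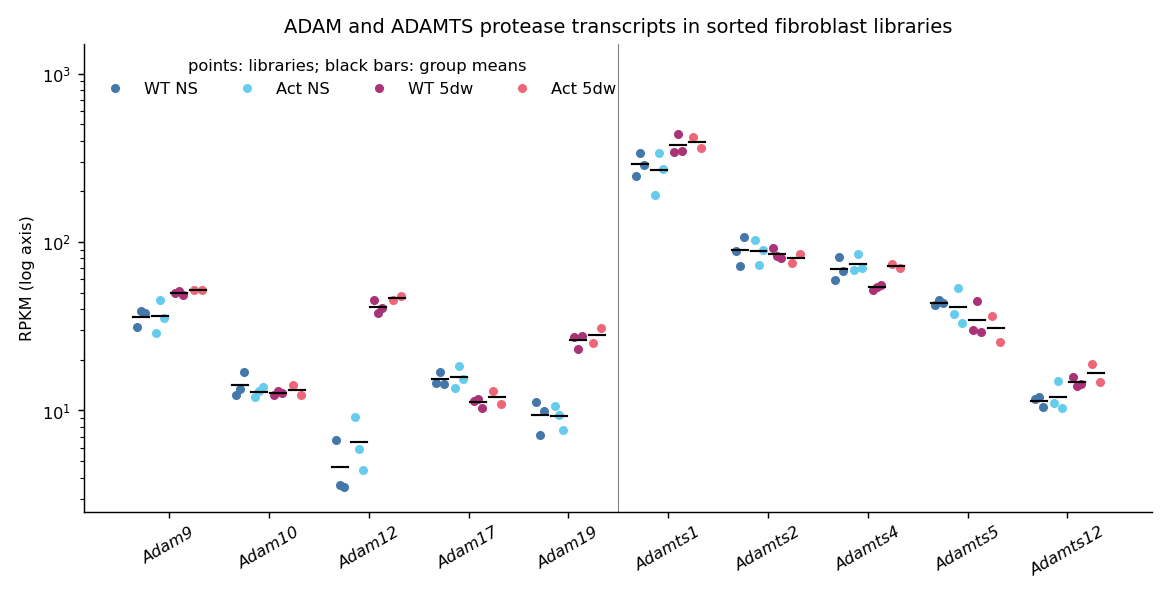
RPKM of the 10 genes (log axis) in each library of WT NS, Act NS, WT 5dw and Act 5dw. Points are libraries and black bars are group means. Adam12 and Adam19 have all 5 wound libraries above all 6 NS libraries, with a gap between 9.19 and 37.8 RPKM for Adam12.

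To find out how wounding affected these proteases, 5dw was compared with NS within each genotype (limma-trend on log2(RPKM + 0.5), all 11 libraries, Benjamini-Hochberg adjustment over 11979 genes, threshold 0.05). In WT, 3 of 10 genes rose (Adam12, Adam19 and Adam9), against 9.45% of all genes tested, and 1 of 10 fell (Adam17), against 48.8% of all genes. In Act, 4 of 10 rose (Adam12, Adam19, Adam9 and Adamts12), against 9.04%, and 0 of 10 fell, against 36.5%. With limma-voom on reads worked out from the RPKM, 0 fell in Act as well and 1 (Adam17) fell in WT. In each genotype, 6 of 10 had an unadjusted p under 0.05 in either direction, near the 63.4% of all genes in WT and 53.4% in Act. The median log2FC of the 10 genes was 0.15 in WT and 0.25 in Act, beside -0.40 and -0.31 for all genes tested. Because the median gene was lower in 5dw, the values were also scaled by median ratios, which put the median of all genes at -0.004 and 0.002. In all genes, 16.2% of those called were higher in WT 5dw before scaling and 50.3% after it, and 19.8% and 48.9% in Act. After scaling, 6 of 10 genes were higher and 0 lower in both genotypes (Adam9, Adam10, Adam12, Adam19, Adamts1 and Adamts12), against 22.4% of all genes higher and 22.2% lower in WT and 19.9% and 20.8% in Act. After quantile normalization, which also brought the median of all genes close to 0, 4 were higher in WT (Adam9, Adam12, Adam19 and Adamts12) and 5 in Act (the same with Adamts1), and 0 were lower, against 20.4% higher and 19.4% lower of all genes in WT and 20.1% and 17.2% in Act. Since the libraries were made from sorted pools, more transcript per cell and more cells with the transcript cannot be told apart.

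Adam12 is a membrane protease known from activated stromal and muscle precursor cells, and it cuts among others heparin-binding EGF and insulin-like growth factor binding proteins. It was at 6.70, 3.62 and 3.54 RPKM in WT NS and at 9.19, 5.94 and 4.44 in Act NS, against 45.3, 37.8 and 40.8 in WT wounds and 45.0 and 48.0 in Act wounds. All 5 wound libraries were above all 6 NS libraries, as in 8.45% of all genes, with the lowest wound value at 37.8 and the highest NS value at 9.19. The log2FC was 3.08 (SE 0.26, adjusted p = 9.1e-06, limma) in WT and 2.80 (SE 0.29, adjusted p = 5.0e-05) in Act, which is 8.45-fold and 6.95-fold on this scale. The change was called in all 21 alternative settings in both genotypes, with log2FC from 2.94 to 3.51 in WT and from 2.57 to 3.14 in Act. These settings include the one without both NS libraries numbered 1.

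Adam19, which processes neuregulins and belongs to the same subgroup as Adam12, showed the second largest change. It was at 11.2, 7.18 and 9.94 RPKM in WT NS and at 10.6, 9.37 and 7.69 in Act NS, against 27.3, 23.2 and 27.7 in WT wounds and 25.3 and 30.8 in Act wounds. Again, no wound library overlapped with an NS library. It rose by a log2FC of 1.44 (SE 0.18, adjusted p = 9.6e-05) in WT and 1.56 (SE 0.20, adjusted p = 0.00017) in Act, or 2.71-fold and 2.94-fold. This call was also made in all 21 settings. Exons of Adam19 are overlapped on the other strand by Gm16033 and Gm16034, each of which was at 0.21 RPKM or less in every library.

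Adam9, a widely expressed membrane protease, was at 31.2, 38.9 and 37.7 RPKM in WT NS and at 28.8, 45.2 and 35.4 in Act NS, against 49.6, 50.9 and 48.5 in WT wounds and 51.6 and 52.0 in Act wounds. The wound libraries were closely grouped above the scattered NS libraries. The log2FC was 0.47 (SE 0.16, adjusted p = 0.0272) in WT and 0.53 (SE 0.18, adjusted p = 0.0338) in Act. These changes were small, and the calls depended on single libraries. In WT, the call was lost without WT NS replicate 1 (adjusted p = 0.0927) or any WT 5dw library, and in Act without Act NS replicate 1 or 3 or WT 5dw replicate 3. Without Act 5dw replicate 1, which leaves 1 library in that group, the log2FC in Act was 0.53. After median-ratio scaling, the log2FC was 0.92 (adjusted p = 0.00033) and 0.88 (adjusted p = 0.0011).

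On the deposited scale, neither of the general sheddases Adam17 and Adam10 rose. Adam17, which releases tumor necrosis factor and ligands of the EGF receptor, was at 14.6, 17.0 and 14.3 RPKM in WT NS and at 13.7, 18.3 and 15.4 in Act NS, against 11.5, 11.7 and 10.3 in WT wounds and 13.1 and 10.9 in Act wounds. All wound libraries were below all NS libraries, as in 38.9% of genes. Adam17 fell in WT with a log2FC of -0.44 (SE 0.14, adjusted p = 0.0177). The value was 0.004 (adjusted p = 0.98) after median-ratio scaling and -0.12 (adjusted p = 0.443) after quantile normalization, so the call depends on the scale. In Act, the log2FC was -0.38 (SE 0.15, adjusted p = 0.0623) and -0.03 after scaling. The call in WT was lost without WT NS replicate 2 (adjusted p = 0.0555) and without WT 5dw replicate 3 (adjusted p = 0.0716). A call in Act was gained without Act NS replicate 1 alone (log2FC -0.47, adjusted p = 0.0249). The same held without both NS libraries numbered 1 (-0.47, adjusted p = 0.0245). Exons of Adam17 overlap on the other strand with Iah1, which was at 24.1 RPKM in WT NS and 15.4 in WT 5dw, and the sources used here do not say whether reads were counted by strand.

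Adam10, which cuts Notch receptors and cadherins, had the most even level of the 10 genes, with a ratio of 1.41 between the highest and the lowest of the 11 libraries. It was at 12.4, 13.4 and 16.9 RPKM in WT NS and at 12.0, 13.0 and 13.8 in Act NS, against 12.4, 13.1 and 12.8 in WT wounds and 14.2 and 12.4 in Act wounds, with overlap between all groups. The log2FC was -0.14 (95% interval -0.43 to 0.15) in WT and 0.04 (-0.28 to 0.36) in Act, and after scaling it was 0.30 (adjusted p = 0.0351) and 0.38 (adjusted p = 0.0217). After quantile normalization it was 0.17 (adjusted p = 0.269) and 0.28 (adjusted p = 0.107), so that Adam10 was called with 1 of these scales. Before scaling, the log2FC in WT was -0.23 without WT NS replicate 1 and without both NS libraries numbered 1. It was -0.01 without WT NS replicate 3.

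**Figure D2:**
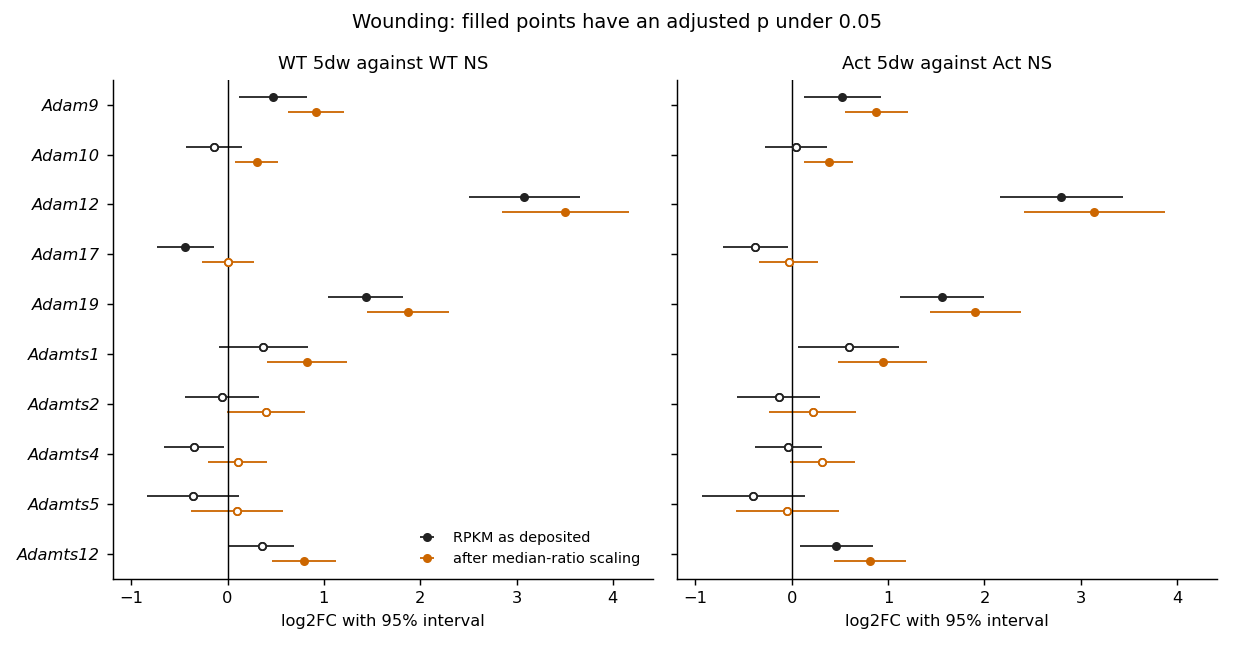
log2FC with 95% interval of the 10 genes for WT 5dw against WT NS (left) and Act 5dw against Act NS (right), from the RPKM as deposited (black) and after median-ratio scaling (orange). Filled points have an adjusted p under 0.05. Adam12 and Adam19 are far to the right in both panels and on both scales, while Adam17 is left of 0 before scaling and close to 0 after it.

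Among the secreted proteases that cut versican and aggrecan, Adamts1 was at 248, 339 and 285 RPKM in WT NS and at 190.2, 336 and 272 in Act NS, against 345, 436 and 347 in WT wounds and 421 and 362 in Act wounds. The wound libraries were all above the NS libraries, although the highest NS value (339) was close to the lowest wound value (345). The log2FC was 0.37 (SE 0.21, adjusted p = 0.150) in WT and 0.59 (SE 0.24, adjusted p = 0.0617) in Act and did not pass the test. The value in Act fell to 0.37 (adjusted p = 0.149) without Act NS replicate 1 and was called without Act NS replicate 2 (0.78, adjusted p = 0.0226). With the replicate number as a block, the change in Act was called (0.73, adjusted p = 0.00846) and that in WT was not (adjusted p = 0.0621). Adamts1 passed after scaling in both genotypes, with 0.83 (adjusted p = 0.0049) and 0.95 (adjusted p = 0.0051).

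Adamts4, which also cuts aggrecan and versican, was at 59.4, 81.2 and 67.5 RPKM in WT NS and at 52.1, 54.2 and 55.5 in WT 5dw, without overlap. In Act, it was at 68.0, 85.3 and 70.0 in NS and at 74.2 and 70.3 in 5dw, with overlap. Exons of Adamts4 are also overlapped by 1 gene on the other strand, whose level was not examined. The log2FC was -0.35 (SE 0.14, adjusted p = 0.0549) in WT and -0.04 (SE 0.16, adjusted p = 0.873) in Act, and both signs turned after scaling (0.11 and 0.32). The difference between these 2 changes was 0.31 (95% interval -0.16 to 0.78, adjusted p = 0.999, interaction term) and thus was not detected. Without WT NS replicate 2, the wound value in WT was -0.23 (adjusted p = 0.179) and this difference 0.19. The wound value in WT was called without both NS libraries numbered 1 (log2FC -0.45, adjusted p = 0.0144), when library 1 of WT NS (adjusted p = 0.0247) or library 1 or 2 of Act NS was left out alone (0.0449 and 0.0477), and with the replicate number as a block (-0.35, adjusted p = 0.0372).

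Adamts5, the other main aggrecan-cutting protease, was at 42.5, 45.1 and 43.4 RPKM in WT NS and at 37.2, 53.6 and 33.1 in Act NS, against 30.1, 44.7 and 29.2 in WT wounds and 36.6 and 25.4 in Act wounds. The groups overlapped, and 1 library of WT 5dw was as high as WT NS. The log2FC was -0.36 (95% interval -0.84 to 0.12) in WT and -0.40 (-0.94 to 0.14) in Act, and after scaling it was 0.09 and -0.05, none of which passed the test. These values rest on single libraries: the log2FC was -0.55 in WT when the high library 2 of 5dw was left out, and in Act it was -0.20 when library 2 of NS was left out and -0.66 or -0.14 when 5dw library 1 or 3 was. Adamts2, which removes the N-propeptides of procollagens, was at 89.1, 72.1 and 108 RPKM in WT NS and at 103, 72.7 and 90.1 in Act NS, against 92.3, 82.6 and 80.6 in WT wounds and 74.6 and 85.1 in Act wounds. No group stood apart from another. Its log2FC was -0.06 (-0.44 to 0.33) in WT and -0.14 (-0.57 to 0.29) in Act (-0.27 without Act NS replicate 2), with the opposite sign after scaling (0.40, adjusted p = 0.0989, and 0.22, adjusted p = 0.42).

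Adamts12, which is known to cut cartilage oligomeric matrix protein, was at 11.7, 12.1 and 10.6 RPKM in WT NS and at 11.1, 14.9 and 10.3 in Act NS, against 15.9, 14.0 and 14.4 in WT wounds and 18.8 and 14.7 in Act wounds. The wound libraries were above the NS libraries in WT, whereas 1 Act NS library was above 1 Act 5dw library. The log2FC was 0.35 (SE 0.15, adjusted p = 0.0670) in WT and 0.46 (SE 0.17, adjusted p = 0.0457) in Act. With the replicate number as a block, the gene was called in WT as well (adjusted p = 0.0497), as it was without Act NS replicate 2 (adjusted p = 0.0383). It was also called in WT in the fit of only the groups compared (adjusted p = 0.0277). The call in Act was lost in 12 of the 21 settings, among them those without any single WT library and without Act NS replicate 1 or 3. Without Act 5dw replicate 1, which leaves 1 library in that group, the log2FC in Act was 0.29. After scaling, the gene was called in both genotypes (0.79 and 0.81).

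The composition of the followed genes of each family was described without regard to the scale of a library. The RPKM of each gene was expressed as a percent of the sum over the 5 followed genes of its family. Other family members were left out of these sums, among them Adam33 (21.9 RPKM) and Adam15 (16.5) in WT NS. Adamts15 (33.2 RPKM) and Adamts14 (17.8) in WT 5dw were left out as well. The sum over the 5 ADAM genes was 74.2 to 91.8 RPKM in the 6 NS libraries and 136.7 to 154 in the 5 wound libraries. Adam12 made up 4.29% to 12.4% of it in NS and 27.6% to 31.1% in 5dw, and Adam19 made up 8.96% to 14.7% and 16.9% to 20.0%. The shares of the other 3 were lower in every wound library than in every NS library: Adam9 was at 38.7% to 49.3% in NS and 33.8% to 37.3% in 5dw, Adam10 at 14.2% to 20.5% and 8.05% to 9.60%, and Adam17 at 17.4% to 21.2% and 7.08% to 8.75%. These shares add up to 100%, so that a higher share of one gene lowers the others.

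The sum over the 5 ADAMTS genes was 409.6 to 562 RPKM in NS and 526 to 631 in 5dw, and the ranges overlapped. Adamts1 made up 46.4% to 61.7% in NS and 64.4% to 69.0% in 5dw, while Adamts4 was at 13.1% to 16.6% and 8.60% to 12.6%, so that neither share overlapped between NS and 5dw. The shares of Adamts2 (12.9% to 25.2% and 11.9% to 17.2%), Adamts5 (6.96% to 9.53% and 4.56% to 7.08%) and Adamts12 (2.05% to 2.71% and 2.21% to 3.02%) overlapped between NS and 5dw.

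**Figure D3:**
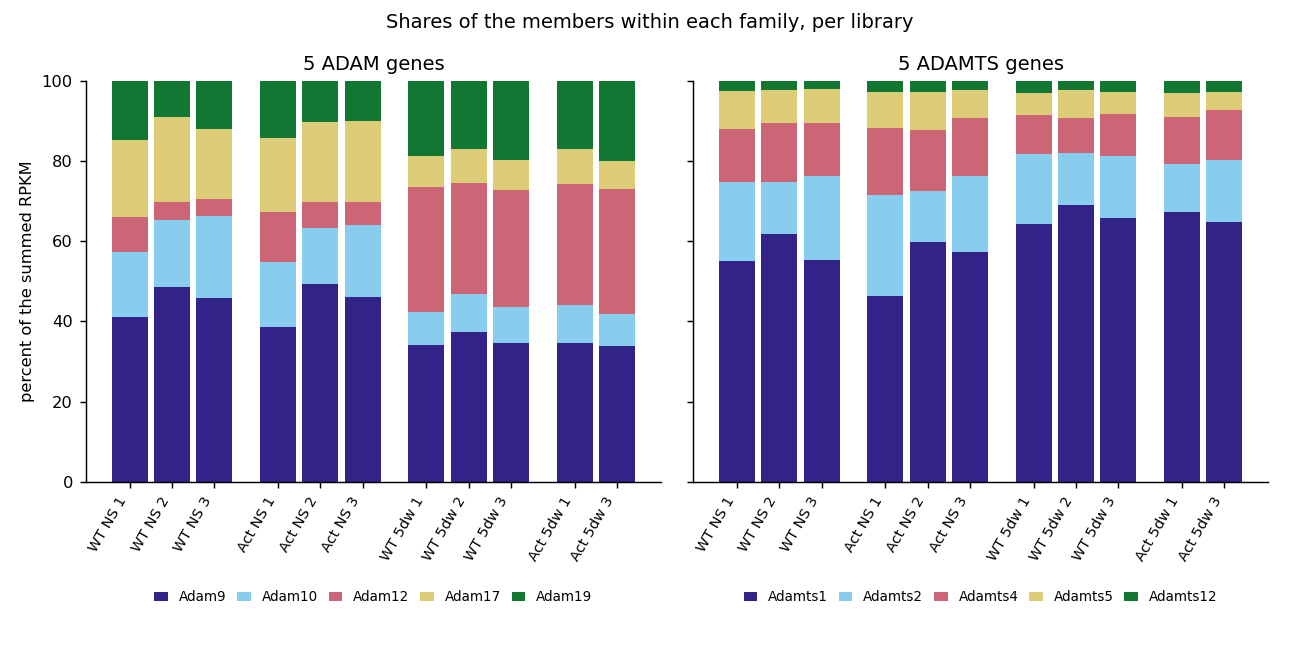
Percent of the summed RPKM of the 5 ADAM genes (left) and the 5 ADAMTS genes (right) for each library, ordered by group. The Adam12 part of the bars is 4.29% to 12.4% in NS and 27.6% to 31.1% in 5dw, while Adamts1 takes the largest part of the right-hand bars in all 11 libraries.

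Next, the effect of the activin transgene was assessed in NS and in 5dw. In NS, 0 of 10 genes differed between Act and WT with limma-trend, 0 had an unadjusted p under 0.05 (6.88% of all genes did), and 0.0167% of all genes were called. The largest log2FC was that of Adam12 with 0.45 (95% interval -0.12 to 1.03, adjusted p = 0.701), and Adam12 overlapped between the groups. Leaving out library 1 of Act NS gave 0.19, leaving out that of WT NS gave 0.73, and leaving out both gave 0.47. In 5dw, 0 of 10 genes were called, against 0.0334% of all genes, and 1 had an unadjusted p under 0.05 (3.22% of all genes did). This was Adamts4, with a log2FC of 0.42 (95% interval 0.07 to 0.77, unadjusted p = 0.0237, adjusted p = 1). Both Act 5dw libraries (74.2 and 70.3 RPKM) were above the 3 of WT 5dw (52.1, 54.2 and 55.5). Adam9 had the same separation, with 51.6 and 52.0 against 48.5 to 50.9 RPKM, and 7.87% of all genes did.

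The interaction of wounding and genotype was called for 0 of 10 genes and for 0% of all genes, and 0 of 10 had an unadjusted p under 0.05 (3.34% of all genes did). With limma-voom, 0 of 10 genes were called in each of these 3 comparisons as well. For the 10 genes, the 95% intervals of the difference between Act and WT reached from -0.62 to 1.03 in NS and from -0.69 to 0.81 in 5dw. The intervals were -0.35 to 0.36 and -0.34 to 0.46 for Adam9 and -0.41 to 0.37 and -0.33 to 0.54 for Adam19.

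**Figure D4:**
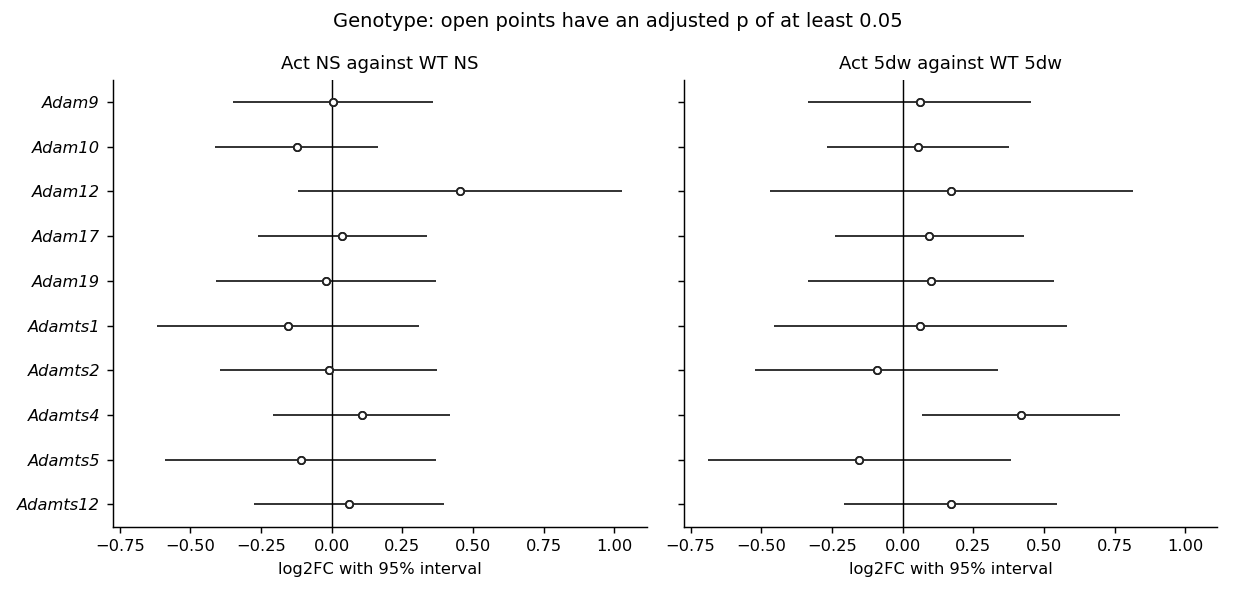
log2FC with 95% interval of the 10 genes for Act against WT in NS (left) and in 5dw (right), from the RPKM as deposited. Open points have an adjusted p of at least 0.05, which is the case for all 10 genes in both panels. Adamts4 in 5dw is the gene whose interval (0.07 to 0.77) does not include 0.

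Over the 11 libraries, the genes with the pattern most like that of Adam12 among all other genes tested were Bgn (Pearson r = 0.992), which encodes the small proteoglycan biglycan, Col5a2 (0.99), a chain of the fibrillar collagen V, and Mical2 (0.988), an actin-oxidizing enzyme. By group means, Bgn was at 434 RPKM in WT and 509 in Act fibroblasts of NS, and at 1567 and 1652 in those of 5dw. Col5a2 was at 171, 201, 546 and 614 RPKM in the same order. For Adam17, the gene with the lowest mean log2FC of the 10, they were Obfc1 (0.975), Crk (0.969) and Kansl1l (0.969). These are descriptions over libraries that share the difference between NS and 5dw.

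The other members of both families moved in either direction with wounding. Of 17 further ADAM and ADAMTS proteases, 14 were tested, and 7 rose and 4 fell in WT, while 8 rose and 5 fell in Act, with a median log2FC of 0.59 and 0.83, and 8 rose and 3 fell in each genotype after scaling. Of all genes, 9.45% rose and 48.8% fell in WT and 9.04% and 36.5% in Act, with 22.4% and 22.2% and with 19.9% and 20.8% after scaling. Adamts7 (1.27 RPKM in WT NS and 6.33 in WT 5dw, log2FC 1.98), Adamts15 (14.6 and 33.2, log2FC 1.19) and Adamts17 (0.325 and 1.24, log2FC 1.09) were the highest. By contrast, Adam33 fell from 21.9 to 3.72 RPKM in WT (log2FC -2.35), followed by Adamts8 (1.96 and 0.316, log2FC -1.60) and Adamts10 (19.6 and 8.28, log2FC -1.13). Each of these 6 was called in both genotypes and also after scaling. Of 9 relatives without protease activity, 8 were tested, and 0 rose while 6 fell in WT and 7 in Act (5 in each after scaling), beside 48.8% and 36.5% of all genes that fell (22.2% and 20.8% after scaling). They include Adamtsl3 (5.48 RPKM in WT NS and 0.416 in WT 5dw, log2FC -2.69), Adamtsl5 (18.4 and 4.52, log2FC -1.84) and Adamtsl2 (2.97 and 0.523, log2FC -1.70).

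Other genes encode proteins that traffic or activate these proteases. Of 16 such genes, 13 were tested, and 1 rose and 6 fell in each genotype, and after scaling 1 rose in each and 3 fell in WT and 5 in Act. Of all genes, 9.45% rose and 48.8% fell in WT and 9.04% and 36.5% in Act (22.4%, 22.2%, 19.9% and 20.8% after scaling), and nothing particular to the list was tested. The gene that rose was Pcsk5, a proprotein convertase, with 8.58 RPKM in WT NS and 51.2 in WT 5dw (log2FC 2.51). Its relative Pcsk6 fell from 32.7 to 7.94 RPKM (log2FC -2.05). Rhbdf1 and Rhbdf2, which encode the iRhom proteins that carry Adam17 to the cell surface, fell from 21.1 to 10.8 and from 2.35 to 1.05 RPKM (log2FC -0.91 and -0.90), and in WT the latter was not called after scaling (adjusted p = 0.0754).

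The inhibitors moved in both directions. Of 7 genes for inhibition and clearance, 6 were tested, and 2 rose and 3 fell in each genotype, also after scaling, beside 9.45% of all genes that rose and 48.8% that fell in WT and 9.04% and 36.5% in Act (22.4%, 22.2%, 19.9% and 20.8% after scaling). Timp1 rose from 44.3 RPKM in WT NS to 675 in WT 5dw (log2FC 3.96), and the broad protease inhibitor A2m from 0.0899 to 2.90 (log2FC 2.49). In contrast, Timp3, the main inhibitor of Adam17, Adamts4 and Adamts5, fell from 168 to 24.6 RPKM (log2FC -2.71), the membrane-anchored inhibitor Reck from 39.9 to 7.44 (log2FC -2.35) and Timp2 from 859.7 to 289.8 (log2FC -1.57). In Act, Timp3 was at 102 RPKM in NS and 29.4 in 5dw (log2FC -1.72). Lrp1, the receptor that clears secreted ADAMTS proteases, was at 118 and 102 RPKM in WT and did not pass the test.

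Finally, the substrates were examined. Of 18 matrix substrates, 15 were tested, and 8 rose and 2 fell in WT, while 6 rose and 1 fell in Act, with 10 and 2 and with 11 and 1 after scaling, beside the shares of all genes given for the inhibitors. Bgn (434 RPKM in WT NS and 1567 in WT 5dw, log2FC 1.88), Col5a1 (219 and 765, log2FC 1.81) and Col3a1 (2405 and 7399, log2FC 1.66) were the highest, and Dcn, which encodes decorin, fell from 4394 to 1867 RPKM (log2FC -1.23). The versican gene Vcan was at 30.6 RPKM in WT NS and 42.7 in WT 5dw and was not called (log2FC 0.63, adjusted p = 0.168), but was called after scaling (1.08, adjusted p = 0.0341), while in Act it was not called before (0.62, adjusted p = 0.244) or after it (0.98). In turn, the aggrecan gene Acan fell from 2.73 to 0.111 (log2FC -2.01, adjusted p = 0.0106) in WT and was not called in Act (adjusted p = 0.0713). The SD of its WT NS libraries (3.03) was larger than their mean, and the NS libraries of both genotypes ranged from 0.795 to 6.22 RPKM. Of 33 membrane substrates, 32 were tested, and 9 rose and 16 fell in WT, while 7 rose and 17 fell in Act, with 11 and 13 and with 9 and 13 after scaling. Beside these counts, 9.45% of all genes rose and 48.8% fell in WT and 9.04% and 36.5% in Act, with 22.4% and 22.2% and with 19.9% and 20.8% after scaling, and nothing particular to the list was tested. Among them, the EGF receptor ligand Ereg rose from 1.37 to 150.8 RPKM (log2FC 6.44), Tnfsf11 from 0.174 to 2.89 (log2FC 2.32) and Nrg1 from 0.159 to 2.28 (log2FC 2.05). Tnfsf11 and Nrg1 were at 0.31 RPKM or less in every NS library and passed the filter through 5dw alone. By contrast, the decoy receptor gene Il1r2 fell from 118 to 9.20 (log2FC -3.63), Epgn from 14.7 to 2.08 (log2FC -2.56) and the Notch ligand gene Dll1 from 6.82 to 0.775 (log2FC -2.54). In both comparisons of Act with WT, limma-trend and limma-voom called 0 of the 88 tested genes of these 6 lists. Of the 88, 2 had an unadjusted p under 0.05 in NS and 2 in 5dw, beside 6.88% and 3.22% of all genes.

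Promoters were read from RefSeq (GRCm38.p6, 250 bases before to 50 after a start site), with 8 windows for 6 of the 10 genes (Adam10, Adam17, Adam19, Adamts1, Adamts2 and Adamts12). They were searched on both strands for TGANTCA, the site of AP-1 factors, for CAGACA, a SMAD-binding element, and for the TATA box TATAAA, which do not overlap with each other here. The AP-1 letters occurred in 1 of the windows, upstream of Adam19 at -131 from the start (chr11:46055843-46055869, plus strand), and in 7.81% of all 32817 promoters. The TATA box occurred upstream of Adamts1 at -32 (chr16:85803130-85803155, minus strand) and in 13.6% of all promoters. CAGACA did not occur in these windows and was found in 21% of all promoters. These matches describe the letters only, and capitals mark the motif:
Adam19: gtccttcaccTGAGTCAgcgatgctcc
Adamts1: cctatgtggcTATAAAggggcggccg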

How the data were processed

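The authors made stranded poly-A libraries, mapped their reads to GRCm38 with CLC Genomics Workbench and deposited RPKM values (reads scaled to gene length and to the mapped total) per gene symbol for 11 libraries. They tested for differences with the edgeR exact test, which takes counts and was not used here. The members and gene lists were chosen with earlier results of these data known. The 11979 of 47643 genes that reached 1 RPKM in 2 or more libraries were fitted on log2(RPKM + 0.5) with limma-trend (limma 3.58.1, R 4.3.3), with 1 mean per group, 7 residual degrees of freedom and an adjusted p under 0.05 (Benjamini-Hochberg within each comparison). Mapped totals were worked out from the steps in the RPKM values (tolerance 0.03). Intervals are 95% intervals of the fit. A gene could pass the filter through NS or 5dw alone. Among the genes named, Tnfsf11, Nrg1, A2m and Adamts17 stayed at 0.56 RPKM or less in NS. Acan, Adamts8, Adamtsl2 and Adamtsl3 stayed at 0.66 RPKM or less in 5dw. Their calls, and the list counts that hold them, rest on genes admitted by their higher tissue. For such genes, the added 0.5 makes the log2FC smaller than the change in mean RPKM. In simulated data with 200 changed genes out of 11979, a log2 change of 1 was found in 66% of changed genes and one of 2 in 94.5% for WT 5dw against WT NS. For Act 5dw against WT 5dw, the values were 67% and 95.5%. In the data, 6978 genes were called for WT 5dw against WT NS, so these percentages do not give the power of that comparison. Members differed by at most 0.45 between genotypes in the main fit, a size that was not simulated. Named are all 10 members and, from each list, up to 3 genes with the highest and 3 with the lowest mean log2FC among those called in both genotypes without overlap of NS and 5dw; Vcan, Acan, Lrp1 and the single marker genes were named after their values were seen. The alternatives were a pseudocount of 0.1 or 1, no filter, a filter of 5 RPKM, median-ratio scaling, quantile normalization, only the groups compared, a replicate block, limma-voom and leaving out libraries. The labels do not say what a replicate number marks. As a check of the pairing, the deviations of same-numbered libraries from their group means correlated at 0.109 to 0.188 between WT NS and WT 5dw and at 0.334 to 0.554 between WT NS and Act NS (3 pairs each, all over 0.1), and at 0.0187 and 0.143 in the 2 pairs of Act NS and Act 5dw. Over all groups, 12 of 15 same-numbered and 5 of 30 other pairs were over 0.1 (medians 0.188 and -0.14). Values with the replicate block are given where they change a call.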

Additional observations from a re-analysis of the deposited data

How the results depend on the processing

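The 4 calls in WT 5dw against WT NS became 6 after median-ratio scaling and with a replicate block. They became 5 in a fit of only the groups compared (Adamts12 gained). When single libraries were left out, they were 2 to 6, with the lowest count without WT 5dw replicate 3. The 4 calls in Act 5dw against Act NS became 2 without the filter on low values and 2 in a fit of only the groups compared (Adam9 and Adamts12 were lost in both). They became 6 after scaling, 5 with the replicate block and 2 to 5 without single libraries, with 2 without Act NS replicate 3 or WT 5dw replicate 3. Fits without an Act 5dw library leave 1 in that group, so their calls are left out of this range. Without both NS libraries numbered 1, an alternative chosen after seeing the data, the counts were 5 (Adamts4 gained) and 4 (Adam17 gained, Adamts12 lost). The Adam12 and Adam19 calls were made in every alternative. Signs turned in WT after median-ratio scaling for Adam10 (0.30), Adam17 (0.00401), Adamts2 (0.40), Adamts4 (0.11) and Adamts5 (0.0948) and after quantile normalization for Adam10 (0.17) and Adamts2 (0.0534). In Act, they turned after scaling for Adamts2 (0.22) and Adamts4 (0.32), after quantile normalization for Adamts4 (0.0914), with the block for Adamts4 (0.0388) and without both NS libraries numbered 1 for Adam10 (-0.00981). Without single libraries, the log2FC of Adamts2 in WT was -0.20 to 0.0849, and in Act that of Adam10 was -0.0540 to 0.13 and that of Adamts4 -0.10 to 0.0655. The causes were not tested. For the comparisons of genotype and the interaction, 0 members were called in all alternatives, and 21 of 210, 8 of 210 and 22 of 200 log2FC had another sign than in the main setting. The fit of only the groups compared could not be made for the interaction, which needs all groups. With the replicate block, Adamts4 (log2FC -0.35, adjusted p = 0.0372) and Adamts12 (0.35, adjusted p = 0.0497) were also called in WT and Adamts1 (0.73) in Act, and it changed no other call of a member. All members had enough reads that the number of libraries, not depth, limited the precision.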
